A study of Mus musculus with 32 samples.

Results

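The genes described here are 35 genes of bone marrow macrophages and of iron recycling, among 24421 genes in a table of raw read counts from 32 RNA-seq libraries. They were taken by symbol from a list drawn up when the age differences of these same libraries were already known. The measured values behind that choice were the counts of aged against young cells, so age differences of the 35 genes are given as a description, with a fold change and its error but without a p-value. Each library held RNA from 1 of 8 stem and progenitor cell fractions, sorted from the marrow of C57BL/6 mice that were 10-week-old (Young) or 20-month-old (Aged), with 2 libraries for each fraction and age. None of the groups received a treatment, and all mice were female.

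Hematopoietic stem cells (HSCs) and 4 multipotent progenitor fractions (MPP1 to MPP4) were sorted from the Lin- gate that was positive for both Sca-1 and c-kit. The other fractions were progenitors of lymphoid cells (CLPs), of granulocytes and macrophages (GMPs) and of megakaryocytes and erythrocytes (MEPs). HSCs carried CD150 and lacked CD34, CD48 and Flt3. MPP1 was CD34+ CD150+ CD48-, MPP2 was CD34+ CD150+ CD48+, MPP3 was CD150- CD48+ Flt3- and MPP4 was Flt3+. GMPs and MEPs were Sca-1- c-kit+, the former CD34+ and FcγR+ and the latter negative for both, while CLPs were positive for the interleukin-7 receptor and low for Sca-1 and c-kit. The lineage antibodies named in the methods were directed against B220, CD4, CD8, Ter-119, Gr-1 and, outside the CLP sort, IL-7Rα. A Mac-1 antibody, which binds myeloid cells including macrophages, is listed among the reagents but not in that mixture, so whether Mac-1+ cells were gated out of these sorts is not clear. Bones were crushed to release the marrow, and dead cells were gated out with propidium iodide. The study describes marrow pooled within each age and sorted in duplicate, and elsewhere biological duplicates, so the errors below measure the spread between these libraries, which may be technical, and may leave out variation between mice.

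Macrophages of the erythroblastic island sit at the centre of a rosette of maturing red cell precursors, take up the nuclei these expel, and in spleen and marrow digest worn-out red cells. Heme from the ingested cells is opened by heme oxygenase (Hmox1), and the resulting biliverdin is reduced by biliverdin reductase. The freed iron is stored in ferritin (Fth1 and Ftl1) or exported by ferroportin (Slc40a1). Spi-C (Spic) and c-Maf (Maf) are transcription factors of this kind of macrophage. The same cells secrete complement C1q and the scavenger protein Cd5l and carry receptors for dying cells, among them Axl, Mertk and Timd4. Several of the genes are also used by other cells: ferritin, cathepsins and heme transporters are found in almost every cell.

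Promoters are shown for 5 secreted or receptor genes of macrophages, C1qb, C1qc, Fcna, Cd5l and Axl, for which a promoter sequence was at hand. They are not a sample of the set: 4 of the 5 hold the first motif below, while the 3 promoters of Apoe, which was called with age in 6 fractions, hold neither motif and are not shown. C1qb, C1qc and C1qa lie next to each other on the minus strand of chromosome 4 (GRCm38, GENCODE M21, 136880129 to 136886187, 136889804 to 136893065 and 136895917 to 136898803). The sequences are from RefSeq (GRCm38.p6) and run 5′ to 3′ on the strand of the gene, from 250 bases before to 50 bases after its start. Their positions are chr4:136886151-136886450 (minus strand) for C1qb, chr4:136892865-136893164 (minus) for C1qc, chr2:25627925-25628224 (minus) for Fcna, chr3:87357631-87357930 (plus) for Cd5l and chr7:25788684-25788983 (minus) for Axl. Capitals mark either GAGGAAG on either strand, a core shared by ETS factors of the PU.1 and Spi-C type, or, in C1qb alone among these, TGACNNNGC on either strand, the core of the antioxidant response element.
C1qb: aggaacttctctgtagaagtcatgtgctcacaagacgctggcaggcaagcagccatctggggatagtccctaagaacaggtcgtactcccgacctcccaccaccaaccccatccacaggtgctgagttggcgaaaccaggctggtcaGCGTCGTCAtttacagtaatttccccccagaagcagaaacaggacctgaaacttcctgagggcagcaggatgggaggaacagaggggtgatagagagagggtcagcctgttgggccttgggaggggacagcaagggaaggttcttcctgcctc
C1qc: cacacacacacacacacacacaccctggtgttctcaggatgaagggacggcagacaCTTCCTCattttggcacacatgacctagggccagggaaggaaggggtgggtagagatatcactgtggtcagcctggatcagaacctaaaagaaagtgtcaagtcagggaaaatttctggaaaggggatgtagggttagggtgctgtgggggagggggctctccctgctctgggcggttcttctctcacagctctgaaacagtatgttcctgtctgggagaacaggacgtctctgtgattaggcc
Fcna: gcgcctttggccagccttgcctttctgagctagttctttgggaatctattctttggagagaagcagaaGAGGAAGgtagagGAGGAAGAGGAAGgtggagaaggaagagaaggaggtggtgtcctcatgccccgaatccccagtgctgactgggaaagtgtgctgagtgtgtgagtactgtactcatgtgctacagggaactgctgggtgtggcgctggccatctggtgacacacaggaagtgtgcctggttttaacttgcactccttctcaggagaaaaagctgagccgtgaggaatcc
Cd5l: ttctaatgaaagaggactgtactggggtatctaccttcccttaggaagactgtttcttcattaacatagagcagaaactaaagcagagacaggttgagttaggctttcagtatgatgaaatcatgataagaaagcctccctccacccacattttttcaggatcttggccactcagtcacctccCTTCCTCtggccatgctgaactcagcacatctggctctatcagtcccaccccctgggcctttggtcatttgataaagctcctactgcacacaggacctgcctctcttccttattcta
Axl: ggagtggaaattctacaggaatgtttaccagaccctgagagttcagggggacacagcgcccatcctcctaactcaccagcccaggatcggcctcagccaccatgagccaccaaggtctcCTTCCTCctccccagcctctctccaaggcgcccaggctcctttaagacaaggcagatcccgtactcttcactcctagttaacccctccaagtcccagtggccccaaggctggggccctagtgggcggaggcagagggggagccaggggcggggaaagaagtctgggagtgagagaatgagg
Of the 35 genes, 25 had at least 1 promoter in the RefSeq set, with 31 promoters between them. GAGGAAG was found in 8 of these 31 (25.8%; Axl, C1qc, Cd5l, Ctsk, Fcna, Igf1, Marco and Mrc1) and in 4477 of all 32851 promoters of this length (13.6%). TGACNNNGC was found in 2 of the 31 (6.45%; C1qb and Ctsd) and in 4071 of all (12.4%), and the letters of both overlapped in 0 promoters. A match is a description of letters and does not show that a factor binds there. No promoter is shown for Vcam1, Maf, Ctsb, Slc48a1, Siglec1, Trf, Sirpa, C1qa, Slc40a1 and Hmox1.

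The 32 libraries held 11237384 to 17723245 counts each, with TMM scaling factors of 0.807 to 1.11. A level is given below as its count scaled to the library total (CPM, the usual unit), and 3 counts in a library, the floor used for genes at 0, correspond to 0.169 to 0.267 CPM. Reads carried no molecular identifiers, so this floor covers counting error only. Of the 35 genes, 33 were tested. Timd4, with at most 10 counts in any library, and Marco, with at most 20, did not pass the filter on low counts. The 2 aged CLP libraries stood apart from each other, with summed levels of 9 erythroblast genes of 692 CPM in replicate 1 and 105 CPM in replicate 2. Among the 33 genes the age contrast of CLPs, with 15 lower and 4 higher calls, had 13 calls without aged replicate 1 and 16 without aged replicate 2.

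The 35 genes spanned the whole range of expression. Per kilobase of exon, ferritin light chain Ftl1 led in young HSCs with 1884 ± 97.0 RPKM (SD, n = 2). It was followed by ferritin heavy chain Fth1 with 479 ± 33.3 and by Apoe, a lipid carrier made by macrophages and by stem cells, with 295 ± 14.8. Cathepsin D (Ctsd) stood at 223 ± 0.549 RPKM and the heme transporter Slc48a1 at 204 ± 3.56. The genes best known from macrophages were far lower in the same cells, with 7.70 ± 0.493 RPKM for C1qa, 3.96 ± 0.479 for Fcna and 0.0295 ± 0.0418 for Siglec1, while Marco, Ms4a7 and Ctsk were at 0. In young CLPs the ferritins again led, with 1186 ± 28.4 RPKM for Ftl1, and C1qb reached 25.7 ± 3.51 RPKM.

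The set did not follow 1 pattern across libraries. Over the 32 libraries, the log2 level of a gene was set beside the mean log2 level of 10 macrophage members (C1qa, C1qb, C1qc, Fcna, Cd5l, Vsig4, Siglec1, Mertk, Axl and Vcam1, each left out of the mean in its own case). Pearson's r was 0.965 for C1qa, 0.963 for C1qc, 0.956 for Fcna, 0.949 for C1qb, 0.919 for Hmox1, 0.887 for Cd5l and 0.870 for Mrc1. It was 0.8485 for Slc11a1, 0.848 for Spic, 0.842 for Hpgd, 0.839 for Axl, 0.833 for Siglec1, 0.761 for Ms4a7 and 0.740 for Igf1. Of the 10 themselves, Mertk (0.660), Vcam1 (0.486) and Vsig4 (0.369) followed the rest less closely, near Cd163 (0.580) and Trf (0.558). By contrast r was -0.322 for Ftl1, -0.282 for Blvrb, -0.279 for Ctsd, -0.241 for Fth1 and 0.0628 for Slc40a1. These libraries share fractions, ages and sequencing depth, and the coefficients are a description. The coefficients thus ran from high values for C1q, Fcna, Hmox1 and Slc11a1 through intermediate ones for Vcam1, Mertk, Cd163 and Trf. They were near or below 0 for ferritin, cathepsin D and the exporter.

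Among young libraries the C1q genes and Fcna were higher in CLPs and lower in GMPs and MEPs than in the HSC and MPP fractions, while the rest of the set was divided. This comparison asks in which sorted fraction the genes stood higher at 1 age. It was fitted as the log2 level in a fraction minus the mean of HSCs and MPP1 to MPP4, and a gene is called higher or lower here at an adjusted p under 0.01 of edgeR's quasi-likelihood test. The same libraries entered the age contrasts known when the genes were listed, so these values too are a description and are given without a p-value. Of the 33 genes tested, 15 were higher in young CLPs (30.1% of all 14154 genes tested were) and 3 were lower (26.4% of all). Those higher in CLPs included all 3 C1q genes, and the difference in C1qb was 1.497 (SE 0.22). Fcna, a ficolin that recognises sugars on microbes and cells, differed by 1.67 (SE 0.18), and the lysosomal protease legumain (Lgmn) by 3.42 (SE 0.25). The lysosomal membrane protein Cd68 differed by 2.54 (SE 0.14) and cathepsin B (Ctsb) by 2.36 (SE 0.07). Vcam1, an adhesion molecule of island macrophages, differed by 1.31 (SE 0.13). The others higher in CLPs were Fth1, Blvrb, Slc40a1, Cd163, Mrc1, Sirpa and Ms4a7, and the 3 that were lower were Slc48a1, Apoe and Gas6. Marker genes of several other cells also stood higher in young CLPs, with 9 of 9 for B cells and plasma cells and 8 of 9 for neutrophils. The numbers were 8 of 10 for dendritic cells, 7 of 8 for T and NK cells, 6 of 7 for monocytes and 5 of 6 for basophils and mast cells. Fewer were higher for endothelium (3 of 7), osteoclasts (2 of 4) and erythroblasts (2 of 9), beside 30.1% of all genes. For megakaryocytes 0 of 6 were higher and 5 lower, and for stroma and bone 0 of 7 were higher and 2 lower.

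In young GMPs 17 of the 33 were lower (32.9% of all genes) and 8 were higher (33.5% of all). C1qa differed by -2.67 (SE 0.33) and Hmox1 by -1.25 (SE 0.21). Vcam1 went the other way, with a difference of 2.31 (SE 0.12), as did the exporter Slc40a1 with 1.52 (SE 0.11). Ctsb, Ctsd, Trf, Sirpa, Cd68 and Ftl1 completed the 8 that were higher. Of 17 tested macrophage genes outside the set, 13 were higher in young GMPs and 2 lower, with a median difference of 3.26. Young MEPs had 23 of the 33 lower (39.6% of all genes) and 6 higher (31.9% of all). The 6 were Blvrb with 4.34 (SE 0.07), Slc40a1 with 2.94 (SE 0.10), Fth1, Ftl1, Ctsd and Apoe, all but the last pair acting on heme or iron. Fcna was lower in MEPs, with -3.45 (SE 0.30), as was Axl with -2.63 (SE 0.14).

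In aged libraries the same contrasts gave a different count for CLPs, where 11 of the 33 were lower (25.8% of all genes) and 8 were higher (27.5% of all). C1qb stood lower in aged CLPs than in aged HSC and MPP fractions, with -2.78 (SE 0.39), as did Vcam1 with -1.48 (SE 0.27), Slc40a1 with -1.79 (SE 0.23) and Axl with -3.32 (SE 0.18). Cd68 with 4.15 (SE 0.13), Ctsb with 3.21 (SE 0.07) and Lgmn with 2.92 (SE 0.24) were higher in aged CLPs, as they were in young ones. In aged GMPs 15 were lower (26.2% of all) and 8 higher (29.5% of all), with Vcam1 at 4.69 (SE 0.13) and Slc40a1 at 3.03 (SE 0.12). In aged MEPs 18 were lower (37.0% of all) and 5 higher (30.9% of all), with Blvrb at 5.07 (SE 0.07) and Slc40a1 at 4.92 (SE 0.11). For genes without a count in a group, among them the C1q genes in aged GMPs, the fitted difference depends on the prior count and is not a bound. Ctsk, Ms4a7, Vsig4 and aged Siglec1 had no usable error in several of these contrasts because whole groups were at 0.

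Heme and iron handling is described first among the roles, then transcription factors, secreted proteins, receptors and lysosome genes, each in young against aged libraries. Calls were made at the same level of 0.01. Young values of Hmox1, which opens the heme ring, were 24.1 and 26.0 CPM for HSCs, 20.4 and 24.3 for MPP1, 48.2 and 45.7 for MPP2, 36.0 and 36.7 for MPP3, 22.0 and 27.3 for MPP4, 7.94 and 10.9 for GMPs, 4.83 and 2.68 for MEPs and 29.5 and 30.4 for CLPs. Aged values were 6.78 and 9.63 CPM for HSCs, 4.77 and 4.95 for MPP1, 8.73 and 8.53 for MPP2, 5.72 and 5.40 for MPP3, 2.52 and 3.25 for MPP4, 0.988 and 2.38 for GMPs, 0 in both MEP libraries and 4.50 and 2.86 for CLPs. The aged libraries were below the young ones in all 8 fractions, without overlap. The log2 fold change of aged against young ran from -1.55 (SE 0.26) in HSCs to -3.00 (SE 0.28) in CLPs and -3.00 (SE 0.29) in MPP4. Both aged MEP libraries were at 0, which makes the young MEP level at least 14.6-fold higher. In these bulk libraries a smaller number of cells that hold a transcript and less of it in each cell cannot be told apart. Hmox1 was called lower in all 8 fractions.

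Ferroportin, the only known iron exporter of mammalian cells and the product of Slc40a1, had young values of 18.5 and 22.8 CPM for HSCs, 18.3 and 18.6 for MPP1, 64.0 and 59.1 for MPP2, 48.3 and 44.3 for MPP3, 19.9 and 24.3 for MPP4, 65.4 and 63.7 for GMPs, 197 and 211 for MEPs and 45.1 and 49.4 for CLPs. In aged libraries it stood at 7.54 and 4.88 CPM for HSCs, 6.24 and 4.40 for MPP1, 13.4 and 12.6 for MPP2, 7.24 and 10.7 for MPP3, 2.22 and 3.03 for MPP4, 42.0 and 41.2 for GMPs, 176 and 173 for MEPs and 2.07 and 1.22 for CLPs. The ages did not overlap in any fraction, and the gap was 28.8-fold in CLPs but 1.17-fold in MEPs, where the level was highest. Log2 fold changes were -1.71 (SE 0.20) in HSCs, -2.33 (SE 0.18) in MPP3, -0.69 (SE 0.16) in GMPs, -0.22 (SE 0.15) in MEPs and -4.82 (SE 0.23) in CLPs. The gene was called lower in every fraction except MEPs.

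Blvrb, a biliverdin reductase that is abundant in red cell precursors, had young values of 35.2 and 46.1 CPM for HSCs, 22.2 and 27.7 for MPP1, 29.4 and 31.5 for MPP2, 25.9 and 24.3 for MPP3, 13.1 and 14.8 for MPP4, 6.15 and 5.47 for GMPs, 470.2 and 444 for MEPs and 33.2 and 30.7 for CLPs. Aged values stood at 33.7 and 40.2 CPM for HSCs, 26.7 and 23.4 for MPP1, 20.0 and 19.7 for MPP2, 15.3 and 14.4 for MPP3, 10.7 and 9.96 for MPP4, 6.38 and 6.03 for GMPs, 612 and 595 for MEPs and 22.4 and 22.3 for CLPs. The ages overlapped in HSCs, MPP1 and GMPs. Blvrb was called lower in aged MPP2, MPP3 and CLPs, with -0.71 (SE 0.13) in MPP3, and higher in aged MEPs, with 0.40 (SE 0.11). Blvrb thus differed in direction between MEPs, where its level was highest, and MPP2, MPP3 and CLPs.

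Ferritin light chain Ftl1 had young values of 2432 and 2616 CPM for HSCs, 1684 and 1764 for MPP1, 1368 and 1445 for MPP2, 1527 and 1699.6 for MPP3, 1595 and 1771 for MPP4, 2582 and 2474 for GMPs, 2143 and 2232 for MEPs and 1562 and 1616 for CLPs. Aged libraries gave 2413 and 2866 CPM for HSCs, 1372 and 1329 for MPP1, 983 and 1018 for MPP2, 1043 and 1174 for MPP3, 1077 and 1154 for MPP4, 2316 and 2390.1 for GMPs, 2633 and 2555 for MEPs and 1732 and 1547 for CLPs. The aged libraries were lower without overlap in MPP1 to MPP4 and GMPs, and higher in MEPs. Its age differences were small, with -0.44 (SE 0.09) in MPP2, -0.50 (SE 0.09) in MPP3 and -0.51 (SE 0.09) in MPP4, the fractions in which it was called lower. Fth1 was called in CLPs alone, where it was higher in aged cells, 2855 ± 539 against 1924 ± 149 CPM, with a log2 fold change of 0.59 (SE 0.12). The call was lost in at least 1 fit with a library of the fraction left out. Reads of both ferritins may be shared with their processed pseudogenes, and these counts are uncertain to that extent.

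Of the other 4 genes that take up heme or iron, Cd163, the receptor for hemoglobin bound to haptoglobin, held 64 to 344 counts per library and was called lower in MPP2 alone, with -0.99 (SE 0.17). Transferrin (Trf), the iron carrier of plasma, was called lower in HSCs, with -0.69 (SE 0.11), and in MEPs, where young libraries held 6.91 and 7.49 CPM and aged ones 0 and 0.412 CPM. Slc48a1, which moves heme out of the lysosome, was called in 0 fractions, with log2 fold changes of -0.17 to 0.12 at 1394 to 8975 counts per library. Slc11a1, an iron and manganese transporter of the phagosome, was also called in 0 fractions, at 0 to 63 counts and log2 fold changes of -2.45 to -0.21.

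Transcription factors were low throughout. Spic, which drives the fate of red pulp and marrow iron-recycling macrophages, had 49 and 79 counts for HSCs, 32 and 51 for MPP1, 59 and 58 for MPP2, 50 and 52 for MPP3, 48 and 43 for MPP4, 10 and 26 for GMPs, 14 and 9 for MEPs and 24 and 42 for CLPs in young libraries. Aged counts were 15 and 39 counts for HSCs, 22 and 32 for MPP1, 24 and 13 for MPP2, 15 and 13 for MPP3, 7 and 9 for MPP4, 3 and 0 for GMPs, 0 in both MEP libraries and 10 and 10 for CLPs. The aged libraries lay below the young in all 8 fractions. Spic was called lower in MPP3 with -1.93 (SE 0.50), MPP4 with -2.39 (SE 0.54), GMPs with -3.15 (SE 0.78) and MEPs, where both aged libraries were at 0 and the young level was at least 2.87-fold higher. Maf, the other factor, held 1 to 57 counts and was called once, higher in aged HSCs, 3.57 ± 0.496 against 0.963 ± 0.230 CPM.

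**Figure D1:**
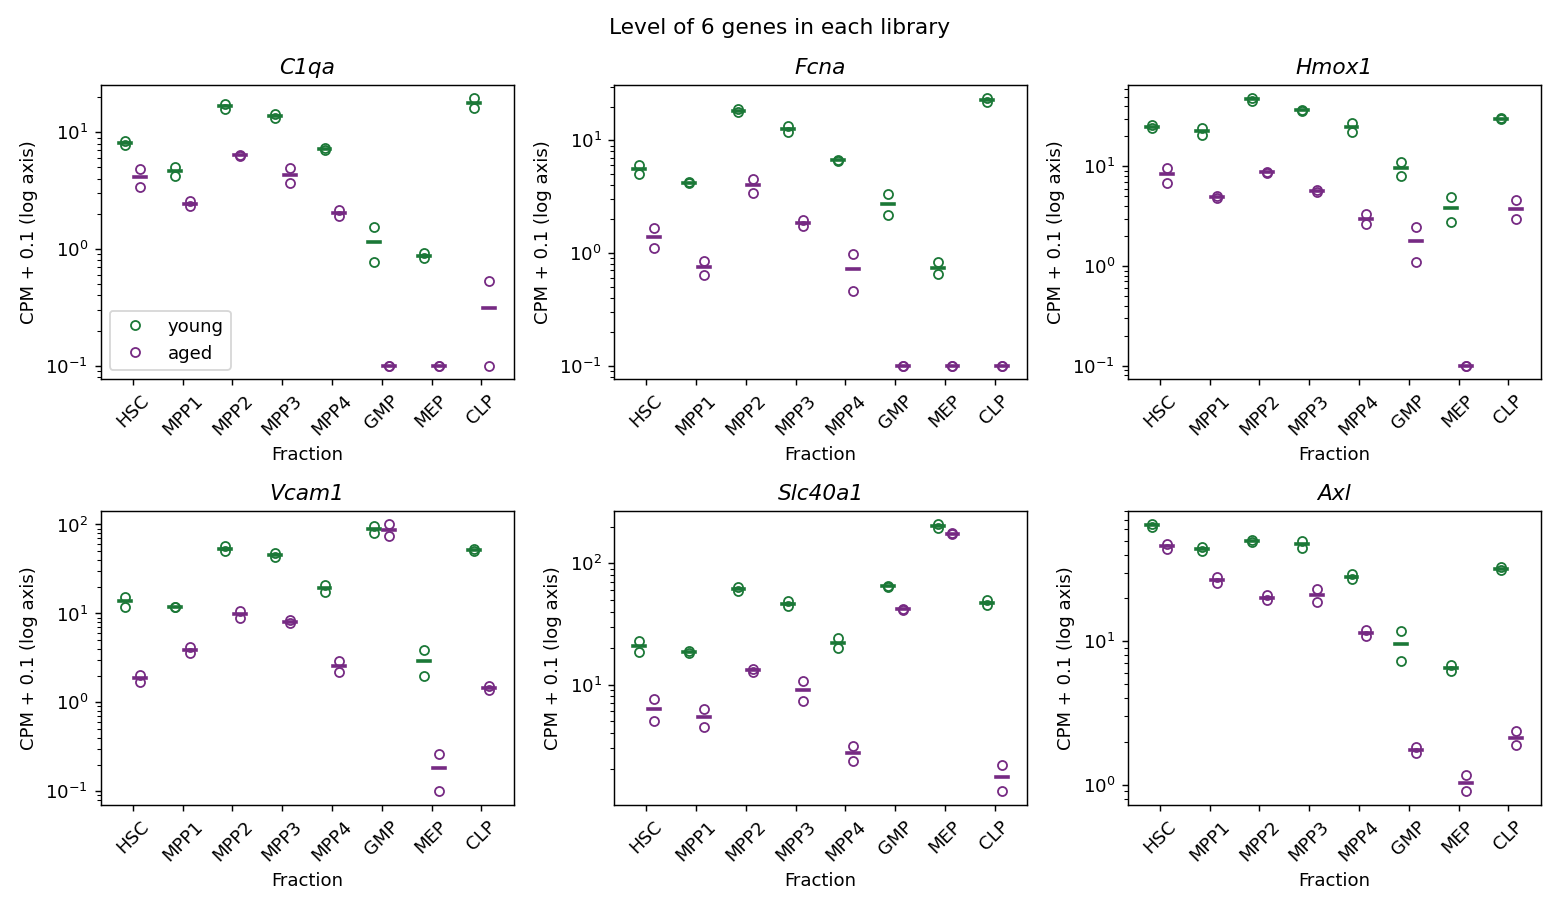
Level of 6 genes in each library, as CPM + 0.1 on a log axis, in the 8 fractions (circles are libraries, bars the mean of 2, young in green and aged in purple). Aged circles lie below young ones in every fraction for C1qa, Fcna, Hmox1, Slc40a1 and Axl, and in every fraction but GMPs for Vcam1.

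Secreted proteins included the C1q subunits, which assemble to start the classical complement pathway. C1qa had young values of 7.64 and 8.37 CPM for HSCs, 4.14 and 4.96 for MPP1, 15.7 and 17.5 for MPP2, 13.1 and 14.3 for MPP3, 6.94 and 7.30 for MPP4, 1.44 and 0.677 for GMPs, 0.734 and 0.825 for MEPs and 16.1 and 19.5 for CLPs. Aged values were 3.30 and 4.75 CPM for HSCs, 2.23 and 2.48 for MPP1, 6.20 and 6.30 for MPP2, 4.90 and 3.60 for MPP3, 2.08 and 1.80 for MPP4, 0 in both GMP libraries, 0 in both MEP libraries and 0.428 and 0 for CLPs. Young and aged libraries did not overlap in any of the 8 fractions, and C1qa was called lower in all but HSCs and MPP1, where the log2 fold change was -0.93 (SE 0.33) and -0.91 (SE 0.36). The difference in MPP3 was -1.64 (SE 0.33). In GMPs the young level was at least 4.69-fold higher and in MEPs at least 3.03-fold higher, since the aged libraries held 0 counts. Of the 6 calls of C1qa, 2 held in every fit with a library of the fraction left out.

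Young values of C1qb were 6.58 and 9.21 CPM for HSCs, 5.27 and 6.73 for MPP1, 22.6 and 21.0 for MPP2, 16.5 and 20.4 for MPP3, 8.85 and 9.54 for MPP4, 1.27 and 3.39 for GMPs, 1.22 and 0.481 for MEPs and 25.3 and 30.7 for CLPs. Aged libraries held C1qb at 5.68 and 7.84 CPM for HSCs, 4.31 and 3.09 for MPP1, 8.73 and 10.9 for MPP2, 6.41 and 6.23 for MPP3, 2.52 and 2.31 for MPP4, 0 in both GMP libraries, 0 in both MEP libraries and 0.4996 and 0.858 for CLPs. The HSC libraries of both ages overlapped, and those of the other fractions did not. C1qb was called lower in MPP3 with -1.499 (SE 0.32), in MPP4 with -1.84 (SE 0.36), and in CLPs with -5.33 (SE 0.42). It was also called lower in GMPs, where the young level was at least 10.3-fold higher, and in MEPs, where it was at least 3.31-fold higher. Young values of C1qc were 7.38 and 8.44 CPM for HSCs, 5.34 and 6.36 for MPP1, 19.7 and 22.9 for MPP2, 18.8 and 16.2 for MPP3, 7.99 and 7.62 for MPP4, 2.59 and 1.24 for GMPs, 0.856 and 0.206 for MEPs and 24.7 and 27.5 for CLPs. Aged libraries held C1qc at 4.83 and 6.67 CPM for HSCs, 2.31 and 2.82 for MPP1, 8.52 and 7.58 for MPP2, 4.00 and 5.93 for MPP3, 2.22 and 2.38 for MPP4, 0 in both GMP libraries, 0 and 0.330 for MEPs and 0.642 and 0 for CLPs. Its libraries overlapped in MEPs and were apart in the other 7 fractions. C1qc was called lower in MPP3 with -1.77 (SE 0.41), MPP4 with -1.67 (SE 0.45), GMPs with at least 8.48-fold and CLPs with -6.29 (SE 0.58).

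Fcna, whose promoter carries 3 of the ETS-type matches shown above, had young values of 4.98 and 5.91 CPM for HSCs, 4.14 and 4.07 for MPP1, 18.9 and 17.6 for MPP2, 13.3 and 11.8 for MPP3, 6.67 and 6.50 for MPP4, 3.22 and 2.09 for GMPs, 0.734 and 0.550 for MEPs and 21.7 and 23.6 for CLPs. Aged values of Fcna were 1.02 and 1.58 CPM for HSCs, 0.539 and 0.756 for MPP1, 3.31 and 4.47 for MPP2, 1.65 and 1.88 for MPP3, 0.890 and 0.361 for MPP4, 0 in both GMP libraries, 0 in both MEP libraries and 0 in both CLP libraries. The libraries were apart in all 8 fractions and Fcna was called lower in each, from -1.99 (SE 0.31) in HSCs to -3.30 (SE 0.35) in MPP4 among the fractions with aged counts above 0. With 0 counts in 6 aged libraries, the young level was at least 106-fold higher in CLPs, 11.8-fold higher in GMPs and 2.50-fold higher in MEPs. Cd5l, a scavenger protein of tissue macrophages, was called in CLPs alone, with 7.005 and 7.17 CPM in young and 0 in both aged libraries, at least 33.1-fold higher in young. In MPP3 it was not called, at 7.45 ± 0.896 CPM in young against 6.55 ± 0.187 in aged libraries.

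Apoe, the lipid carrier, had young values of 609 and 654 CPM for HSCs, 369 and 384 for MPP1, 459.6 and 502 for MPP2, 187 and 207 for MPP3, 40.6 and 43.5 for MPP4, 74.2 and 64.5 for GMPs, 324 and 328 for MEPs and 85.0 and 84.2 for CLPs. Aged libraries held Apoe at 634 and 733 CPM for HSCs, 269 and 262 for MPP1, 264 and 277 for MPP2, 102 and 117 for MPP3, 12.8 and 12.8 for MPP4, 41.3 and 36.0 for GMPs, 109 and 101 for MEPs and 49.5 and 31.8 for CLPs. It was called lower in 6 fractions, from -0.78 (SE 0.14) in MPP2 to -1.63 (SE 0.16) in MPP4 and -1.63 (SE 0.14) in MEPs, and not in HSCs, where the libraries of the ages overlapped. The growth factor Igf1, which marrow macrophages and stroma secrete, had 157 and 188 counts for HSCs, 36 and 47 for MPP1, 51 and 58 for MPP2, 45 and 59 for MPP3, 16 and 30 for MPP4, 0 and 12 for GMPs, 19 and 11 for MEPs and 36 and 38 for CLPs in young libraries. Aged counts of Igf1 were 15 and 10 counts for HSCs, 2 and 7 for MPP1, 9 and 5 for MPP2, 2 and 5 for MPP3, 6 and 2 for MPP4, 0 in both GMP libraries, 0 in both MEP libraries and 3 and 4 for CLPs. Relative to depth the ages overlapped in GMPs alone. Igf1 was called lower in 6 fractions, with -3.76 (SE 0.62) in HSCs and -3.47 (SE 0.77) in CLPs. Each of these 6 calls was lost in at least 1 fit with a library of its fraction left out.

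Receptors and adhesion molecules came next. Vcam1 had young values of 11.8 and 15.3 CPM for HSCs, 11.7 and 11.6 for MPP1, 50.3 and 56.7 for MPP2, 42.5 and 47.9 for MPP3, 17.2 and 20.8 for MPP4, 80.7 and 95.6 for GMPs, 1.90 and 3.78 for MEPs and 50.3 and 53.1 for CLPs. Aged values of Vcam1 were 1.61 and 1.93 CPM for HSCs, 3.47 and 4.06 for MPP1, 10.4 and 8.87 for MPP2, 8.27 and 7.65 for MPP3, 2.82 and 2.09 for MPP4, 74.3 and 101 for GMPs, 0 and 0.165 for MEPs and 1.43 and 1.29 for CLPs. In GMPs, where Vcam1 was highest, the ages overlapped and the log2 fold change was -0.06 (SE 0.18). In the other 7 fractions the aged libraries were lower without overlap and Vcam1 was called, from -1.58 (SE 0.24) in MPP1 to -5.23 (SE 0.27) in CLPs.

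Axl, a receptor tyrosine kinase that binds dying cells through its ligand Gas6, had young values of 62.4 and 65.2 CPM for HSCs, 42.4 and 44.9 for MPP1, 50.6 and 48.8 for MPP2, 44.7 and 49.8 for MPP3, 29.1 and 26.9 for MPP4, 11.6 and 7.17 for GMPs, 6.12 and 6.74 for MEPs and 31.2 and 32.7 for CLPs. Aged values of Axl were 47.4 and 43.9 CPM for HSCs, 27.6 and 25.4 for MPP1, 19.1 and 20.8 for MPP2, 18.6 and 23.1 for MPP3, 10.8 and 11.8 for MPP4, 1.75 and 1.56 for GMPs, 0.801 and 1.07 for MEPs and 2.28 and 1.79 for CLPs. The libraries of the ages were apart in all 8 fractions and Axl was called lower in all but HSCs, from -0.68 (SE 0.15) in MPP1 to -3.95 (SE 0.19) in CLPs. The ligand Gas6 stood at 37.7 and 42.2 CPM for HSCs, 27.9 and 23.6 for MPP1, 14.7 and 14.7 for MPP2, 28.2 and 32.3 for MPP3, 50.5 and 49.4 for MPP4 and 3.15 and 4.24 for CLPs in young libraries. Aged values of Gas6 were 49.3 and 57.2 CPM for HSCs, 17.1 and 17.4 for MPP1, 7.18 and 7.92 for MPP2, 9.38 and 9.90 for MPP3, 20.8 and 18.8 for MPP4 and 1.78 and 1.79 for CLPs. GMPs held 0 counts at both ages, and MEPs held 5 and 0 counts in young and 0 in aged libraries. Gas6 was called lower in MPP2 with -0.91 (SE 0.20), MPP3 with -1.60 (SE 0.19) and MPP4 with -1.25 (SE 0.18). In HSCs both aged libraries were above both young ones, with 0.46 (SE 0.18), which was not called.

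The mannose receptor Mrc1 had young values of 2.58 and 1.20 CPM for HSCs, 2.78 and 2.44 for MPP1, 13.3 and 12.7 for MPP2, 10.2 and 9.85 for MPP3, 4.89 and 6.90 for MPP4, 1.15 and 4.68 for GMPs, 0 in both MEP libraries and 11.4 and 11.3 for CLPs. Aged values of Mrc1 were 1.69 and 0.894 CPM for HSCs, 0.539 and 0.825 for MPP1, 1.41 and 3.32 for MPP2, 1.65 and 2.48 for MPP3, 0.519 and 0.794 for MPP4, 1.29 and 1.27 for GMPs, 0 and 0.0825 for MEPs and 0.642 and 0.858 for CLPs. The ages were apart in MPP1 to MPP4 and CLPs, with the young libraries higher, and overlapped in HSCs and GMPs. Mrc1 was called lower in MPP2 with -2.40 (SE 0.47), MPP3 with -2.23 (SE 0.48), MPP4 with -3.06 (SE 0.56) and CLPs with -3.89 (SE 0.54). Siglec1 (CD169), a sialic acid receptor that marks island macrophages, had 0 and 6 counts for HSCs, 24 and 17 for MPP1, 81 and 87 for MPP2, 51 and 79 for MPP3, 30 and 24 for MPP4, 10 and 4 for GMPs, 0 in both MEP libraries and 49 and 41 for CLPs in young libraries. Aged counts of Siglec1 were 0 and 7 counts for HSCs, 0 in both MPP1 libraries, 12 and 12 for MPP2, 7 and 9 for MPP3, 0 and 5 for MPP4, 0 in both GMP libraries, 0 in both MEP libraries and 0 in both CLP libraries. The young counts were highest in MPP2 and MPP3, and the ages overlapped in HSCs. Siglec1 was called lower in MPP1 and CLPs, where the aged libraries held 0 counts and the young level was at least 7.01-fold and 16.4-fold higher. It was also called lower in MPP3, with -3.08 (SE 0.80).

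Sirpa, the receptor for the CD47 signal that restrains phagocytosis, had young values of 87.7 and 99.3 CPM for HSCs, 91.6 and 87.8 for MPP1, 94.2 and 96.7 for MPP2, 112 and 106 for MPP3, 105 and 104 for MPP4, 158 and 178 for GMPs, 6.30 and 3.16 for MEPs and 172 and 169 for CLPs. Aged values of Sirpa were 62.9 and 65.2 CPM for HSCs, 67.2 and 67.6 for MPP1, 61.3 and 62.8 for MPP2, 61.9 and 64.7 for MPP3, 70.1 and 66.6 for MPP4, 169.6 and 166 for GMPs, 1.16 and 0.742 for MEPs and 351 and 242 for CLPs. The ages overlapped in GMPs alone. Sirpa was called lower in MPP3 with -0.74 (SE 0.16) and MEPs with -2.33 (SE 0.35), and higher in CLPs with 0.82 (SE 0.15), where the 2 aged libraries themselves stood far apart. Mertk, a relative of Axl, held 0 to 61 counts and was called in CLPs alone, where the young libraries held 30 and 35 counts and the aged ones 0. Timd4, a receptor for phosphatidylserine, had at most 10 counts in any young library and 0 in every aged one. Vsig4 (a complement receptor), Ms4a7 and the scavenger receptor Marco stayed at or under 25 counts and were called in 0 fractions. In MPP3 both Vsig4, with 14 and 12 counts in aged against 4 and 0 counts in young libraries, and Marco, with 20 and 8 counts against 4 and 2 counts, had higher aged counts.

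The 6 lysosome and metabolic genes had 6 lower and 3 higher calls with age. The shares of all genes called in each fraction are given below, and nothing is read from these counts. Ctsb was called in CLPs alone, higher in aged cells, 3149 ± 726 against 1802 ± 4.19 CPM. Cd68 was called higher in aged CLPs, 274 ± 84.2 against 102 ± 5.02 CPM, and lower in aged MEPs, 0.590 ± 0.331 against 2.70 ± 1.82 CPM. Ctsd was called in HSCs alone, with 0.31 (SE 0.06). Lgmn was called lower in MEPs, where the young libraries held 14 and 44 counts and the aged ones 0. The collagen-degrading cathepsin K (Ctsk), best known from osteoclasts, held 92 and 135 counts in the young MPP2 libraries and 0 in both aged MPP2 libraries, at least 42.5-fold, and at most 6 counts in any other library. Hpgd, which inactivates prostaglandins, had 30 and 34 counts for HSCs, 37 and 39 for MPP1, 76 and 79 for MPP2, 72 and 70 for MPP3, 49 and 49 for MPP4, 7 and 8 for GMPs, 3 and 0 for MEPs and 44 and 37 for CLPs in young libraries. Aged counts of Hpgd were 5 and 3 counts for HSCs, 0 and 9 for MPP1, 8 and 12 for MPP2, 11 and 2 for MPP3, 3 and 0 for MPP4, 0 and 4 for GMPs, 0 in both MEP libraries and 4 and 11 for CLPs. The aged libraries were below the young in all fractions but MEPs. Hpgd was called lower in MPP2 with -3.06 (SE 0.72), MPP3 with -3.51 (SE 0.77) and MPP4 with -4.83 (SE 0.96).

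Across the set, 97 of the 264 tests of a gene in a fraction were called lower in aged libraries and 7 were called higher. In HSCs 6 of the 33 genes were lower (1.66% of all 14154 genes were) and 2 higher (3.74% of all). MPP1 had 7 lower (2.09% of all) and 0 higher (4.71% of all). MPP2 had 15 lower (3.31%) and 0 higher (4.49%), MPP3 had 18 lower (5.79%) and 0 higher (8.14%), and MPP4 had 14 lower (6.27%) and 0 higher (10.3%). GMPs had 9 lower (8.97%) and 0 higher (9.93%). MEPs had 13 lower (11.7%) and 1 higher (9.08%), and CLPs had 15 lower (4.73%) and 4 higher (5.71%). Because the genes were listed with these contrasts known, nothing is read from these counts. Of the 33 genes, 25 were lower in at least 1 fraction, 17 in at least 3, and Hmox1 and Fcna in all 8. The matching shares of all genes tested are not given, so nothing is read from these numbers either. The 4 called only higher were Maf, Fth1, Ctsb and Ctsd, and the 4 tested genes without a call were Slc48a1, Slc11a1, Vsig4 and Ms4a7.

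The median log2 fold change of the 33 genes, beside that of all genes tested, was -0.18 against 0.02 in HSCs, -0.54 against -0.0019 in MPP1, -1.10 against -0.02 in MPP2, -1.13 against -0.04 in MPP3 and -1.63 against -0.02 in MPP4. It was -0.90 against 0 in GMPs, -1.62 against 0 in MEPs and -2.45 against 0 in CLPs. With genes at 0 in both libraries of an age set to their bound, the median was -1.25 in MPP4, -0.585 in GMPs and -0.54 in MEPs. Many of the lower calls rest on few counts, and the number called moved when 1 library was left out. In HSCs 5 were called without aged replicate 2. In MPP1 4 were called without young replicate 1, young replicate 2 or aged replicate 1. In MPP2 the number was 7 without young replicate 1, 6 without young replicate 2, 5 without aged replicate 1 and 8 without aged replicate 2. MPP3 gave 9 without young replicate 2, 10 without aged replicate 1 and 9 without aged replicate 2. MPP4 gave 9 without aged replicate 2, and MEPs gave 9 without aged replicate 1 and 8 without aged replicate 2. Of the 104 calls, 56 held in every such fit of their fraction. They included all 8 of Hmox1, all 8 of Fcna and all 7 of Vcam1, 6 of 7 for Slc40a1 and for Axl and 5 of 6 for Apoe. They included only 2 of 6 calls of C1qa, 2 of 5 of C1qb, 2 of 4 of C1qc, 1 of 4 of Mrc1, 1 of 3 of Ftl1 and of Sirpa, 2 of 3 of Gas6 and 1 of 2 of Cd68. No call of Igf1, Spic, Hpgd, Siglec1 or Blvrb held, nor did the single calls of Fth1, Maf, Cd163, Mertk, Lgmn, Ctsd and Ctsk, while those of Trf, Cd5l and Ctsb did.

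**Figure D2:**
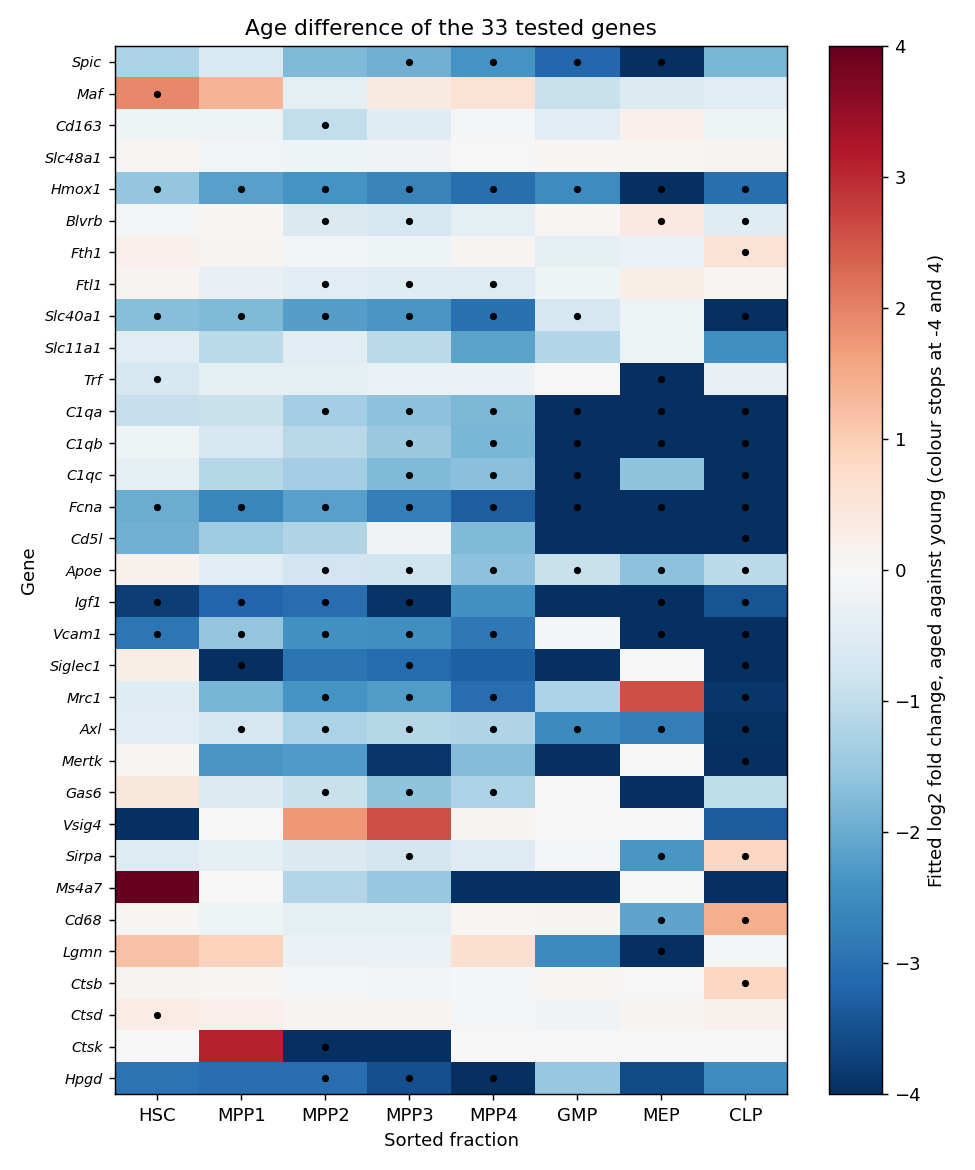
Fitted log2 fold change of aged against young libraries (colour, which stops at -4 and 4) for the 33 tested genes (rows) in the 8 fractions (columns), with a dot where a gene was called. Blue rows with dots in all 8 columns are Hmox1 and Fcna, and the 7 red cells with a dot are the calls that were higher in aged libraries; where a group held 0 counts the fitted value depends on the prior count.

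Whether the age difference itself differed between fractions was examined as the difference in GMPs, MEPs or CLPs minus the mean difference over HSCs and MPP1 to MPP4. It was called for 10 of the 33 genes in GMPs (25.7% of all genes), 11 in MEPs (24.2% of all) and 13 in CLPs (21.8% of all). The gap for Vcam1 was smaller in GMPs than in the HSC and MPP fractions, a difference of 2.38 (SE 0.21) on the log2 scale, and larger in CLPs, a difference of -2.79 (SE 0.30). For Slc40a1 it was smaller in GMPs, with 1.51 (SE 0.18), and in MEPs, with 1.98 (SE 0.17), and larger in CLPs, with -2.63 (SE 0.26). For Axl it was larger in all 3 fractions, with -1.61 (SE 0.23), -1.81 (SE 0.28) and -3.00 (SE 0.21). These values come from the contrasts that chose the genes and are a description. The number called in GMPs was 5 without young replicate 1 or without aged replicate 1 and 6 without aged replicate 2, and in MEPs it was 7 without aged replicate 2.

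Within a library, the level of some of the macrophage genes relative to C1q shows whether these genes differed together. The summed level of C1qa, C1qb and C1qc was 21.6 to 26.0 CPM in young HSCs, 58.1 to 61.5 in young MPP2, 48.5 to 50.9 in young MPP3 and 66.1 to 77.7 in young CLPs. In aged libraries it was 13.8 to 19.3 CPM in HSCs, 23.5 to 24.8 in MPP2, 15.3 to 15.8 in MPP3 and 0.858 to 1.57 in CLPs, and 0 in both aged GMP libraries. Per 100 C1q counts of the same library, the 10 young HSC and MPP libraries held 72.1 to 138 counts of Hmox1, and the 10 aged ones 34.3 to 59.0. The same ranges were 22.5 to 32.6 against 5.56 to 18.03 for Fcna, 83.6 to 124 against 25.4 to 70.4 for Slc40a1, 54.7 to 94.0 against 10.0 to 54.1 for Vcam1, and 9.19 to 18.9 against 0 to 7.38 for Hpgd. For these 5 genes the ages did not overlap in the HSC and MPP fractions, so relative to C1q they were lower in those aged libraries as well. The ratios also differed between young fractions: young CLPs held 39.1 to 44.6 counts of Hmox1 and 63.6 to 68.2 of Slc40a1 per 100 C1q counts, within the aged ranges above, and young GMPs held 1526 to 1803 of Vcam1. The ranges of the C1q subunits overlapped, with C1qa at 27.1 to 35.4 against 22.9 to 31.98 and C1qb at 30.5 to 40.2 against 35.6 to 48.7 of every 100. In HSCs alone they did not, with C1qa at 32.2 to 35.4 in young against 23.9 to 24.6 in aged libraries. There C1qb was at 30.5 to 35.4 in young against 40.7 to 41.1 in aged libraries. C1qa was also lower without overlap in aged MPP2, and C1qb in aged MPP4. Cd5l at 10.3 to 20.3 against 4.29 to 42.4 and Axl at 79.3 to 289 against 81.4 to 343 overlapped between the ages. The ranges also overlapped for Spic at 7.13 to 21.35 against 3.55 to 26.23 and Mrc1 at 4.595 to 28.2 against 4.64 to 15.71. Those of Igf1, at 4.44 to 64.6 against 0.901 to 9.20, overlapped as well. These ranges pool HSCs with MPP1 to MPP4 and can hide differences within a fraction. Igf1 was lower without overlap in aged HSCs and MPP1 to MPP3, with 50.81 to 64.61 against 3.571 to 9.202 in HSCs. Mrc1 was likewise lower in aged MPP1 to MPP4, and Spic in aged HSCs, MPP3 and MPP4. Cd5l was lower in aged HSCs and higher in aged MPP3, at 13.39 to 16.67 in young against 41.89 to 42.38 in aged libraries. Axl was higher in aged MPP1, MPP3 and MPP4.

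**Figure D3:**
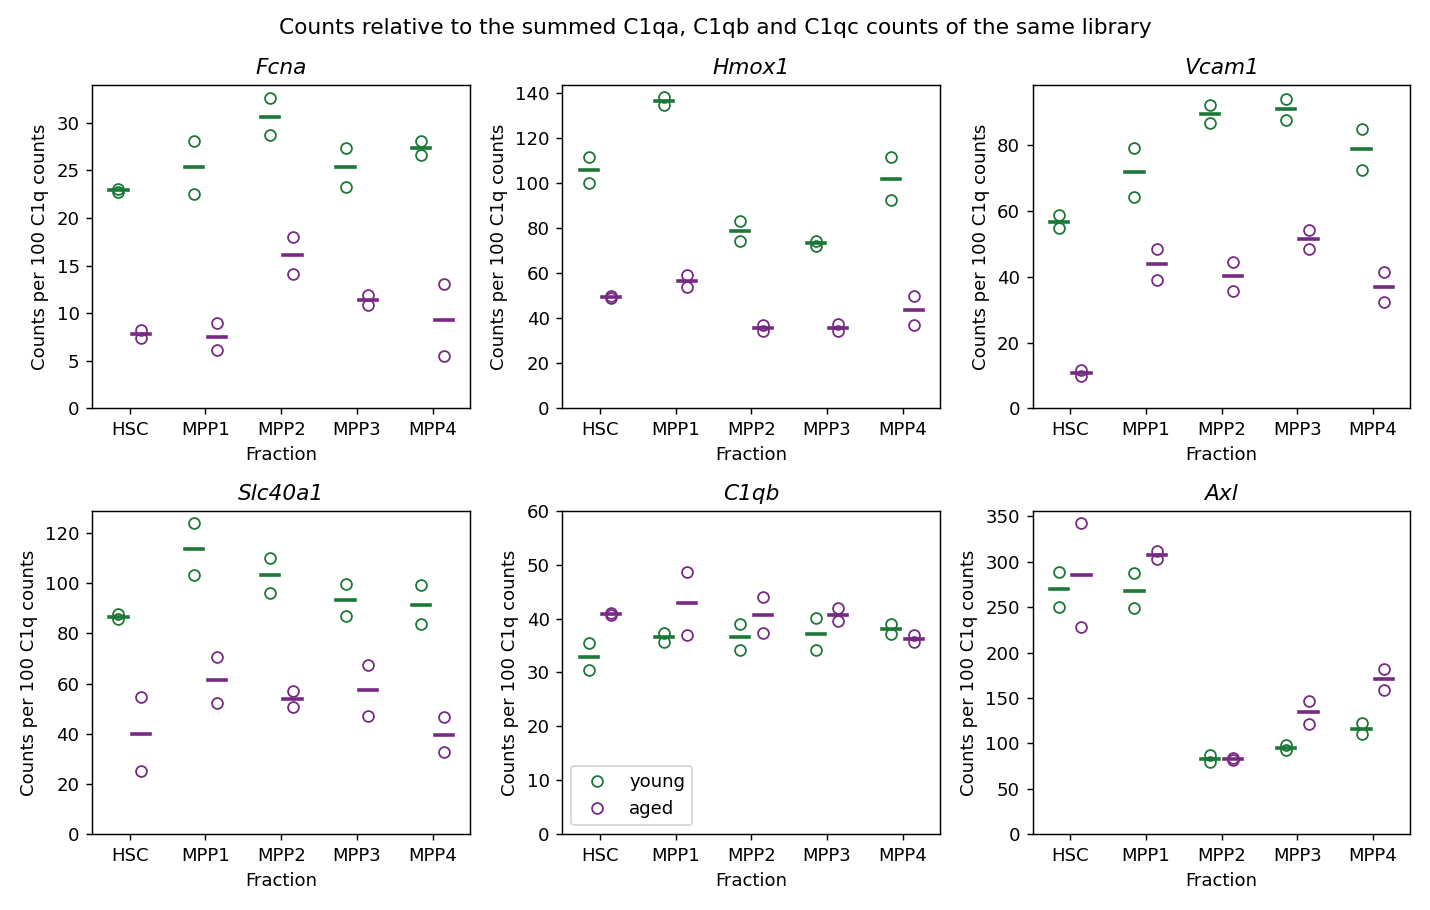
Counts of 6 genes per 100 counts of C1qa, C1qb and C1qc in the same library (vertical axes), in HSCs and MPP1 to MPP4, for young (green) and aged (purple) libraries, with bars at the mean of 2. Aged circles lie below the young ones of every fraction for Fcna, Hmox1, Vcam1 and Slc40a1. Those of Axl lie above the young ones in MPP1, MPP3 and MPP4 and overlap with them in HSCs and MPP2. Those of C1qb lie above the young ones in HSCs, below them in MPP4 and overlap with them in the other fractions.

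Other macrophage genes from a list of 20, of which 17 were tested, did not all go the same way. Of the 17, 11 were called lower in at least 1 fraction and 4 higher, with 29 lower and 8 higher calls in all. The share of all genes called in at least 1 fraction is not given, here or for the lists below. These counts are a description. Lyz2 (lysozyme of macrophages and granulocytes) was called lower in 6 fractions, with 541 ± 7.07 CPM in young and 254 ± 17.97 in aged MPP3. The lysosomal gene Pld3 was called lower in 5, with -1.15 (SE 0.12) in MPP4. Fcgr4, a receptor for IgG, was called higher in 4. In HSCs it held 0 in both HSC libraries in young against 48 and 82 counts in aged libraries, at least 20.3-fold higher in aged ones. Adgre1, which encodes the macrophage marker F4/80 and was singled out after its values were seen, was highest in GMPs, with 22.5 and 21.4 CPM in young libraries. In CLPs it stood at 7.56 and 6.47 CPM in young against 0 and 0.358 CPM in aged libraries, the fraction in which it was called.

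Other heme and iron genes, 26 tested of a list of 30, had 12 genes lower in at least 1 fraction and 8 higher, with 26 lower and 15 higher calls. Ncoa4, which brings ferritin to the lysosome to free its iron, was called lower in 6 fractions, with -0.49 (SE 0.07) in HSCs and -0.54 (SE 0.08) in MEPs. Lrp1, an uptake receptor for heme bound to hemopexin among many ligands, was called lower in MPP1 to MPP4, with -2.92 (SE 0.35) in MPP3. Alas2, the first enzyme of heme synthesis in red cell precursors, was called lower in 4 fractions, with 52.6 and 50.2 CPM in young and 19.1 and 1.93 CPM in aged CLPs, where the 2 aged libraries themselves stood far apart. Hpx was at 0 counts in every library, and Flvcr1 and Flvcr2 were not analysed here.

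Marker genes of other cell types moved with age in the same libraries. The summed level of 9 erythroblast genes was 1616 to 1706 CPM in young and 327 to 364 in aged MPP3, 1901 to 1954 against 105 to 692 in CLPs, and 1090 to 1178 against 987 to 1308 in HSCs. Over all libraries it ranged from 573 to 1954 CPM in young and 38.5 to 1308 in aged ones, and 6 of the 9 genes were called lower somewhere and 0 higher. Because hemoglobin genes are near-identical copies, single members of that list are uncertain. For 9 neutrophil genes the sum was 1248 to 1254 CPM in young against 202 to 272 in aged MPP3 and 600 to 609 against 92.7 to 162 in CLPs, but 69.4 to 76.2 against 321 to 344 in HSCs (7 of 9 lower and 6 higher somewhere). The 8 stromal and bone genes summed to 113 to 115 CPM in young against 4.83 to 5.25 in aged MPP3 and to 0.169 to 2.59 against 0 in GMPs (5 of 7 tested lower, 0 higher), with Bglap at or under the floor in every library.

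Osteoclast genes (2 of 4 tested lower, 1 higher) summed to 46.1 to 50.5 CPM in young against 13.7 to 16.8 in aged MPP2. Calcr was at or under the floor throughout. In young CLPs, where Ctsk was at 0 RPKM, the osteoclast sum was 65.0 to 66.9 CPM. The stromal and bone sum in MPP2 was 99.9 to 100.3 CPM in young against 22.7 to 26.6 in aged libraries. Monocyte genes (5 of 7 lower, 3 higher) summed to 270 to 272 against 93.8 to 94.3 CPM in MPP3 and to 327 to 328 against 499 to 672 in CLPs. Dendritic cell genes (2 of 10 lower, 8 higher) summed to 4299 to 4378 CPM in young against 10165 to 13938 in aged CLPs, where Sirpa, Cd68, Ctsb and Fth1 were called higher in aged cells. The dendritic cell sum was also higher in aged HSCs, at 685 to 718 against 1177 to 1458, in MPP1, at 304 to 322 against 882 to 894, and without overlap in MPP2 to MPP4. None of these 4 genes was called higher there. In those fractions the listed genes called higher were H2-Ab1 and, in MPP1, MPP2 and MPP4, H2-Aa and Cd74. Siglech, Clec9a, Cd209a and Klk1 were called higher in CLPs alone, and Ccr9 was called lower in MPP3 and MPP4 and higher in CLPs. Basophil and mast cell genes summed to 1664 to 1697 CPM in young against 7.64 to 11.6 in aged CLPs, the fraction in which C1qb, Fcna, Vcam1 and Slc40a1 were also far lower. B cell and plasma cell genes (9 of 9 lower, 0 higher) summed to 184 to 197 CPM in young against 0.412 to 1.16 in aged MEPs, where Lgmn, Trf and Cd68 were called lower. In HSCs, where Trf was also called lower, that sum was 63.7 to 65.6 in young against 46.7 to 51.7 in aged libraries. Endothelial genes (6 of 7 lower, 3 higher) summed to 303 to 317 against 179 to 207 CPM in MPP3. These sums moved with age in the same libraries as the 35 genes. A lineage-negative sort is meant to remove Ter-119+, Gr-1+ and B220+ cells, and the part of RNA carried over from macrophages or other cells in the differences was not tested.

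**Figure D4:**
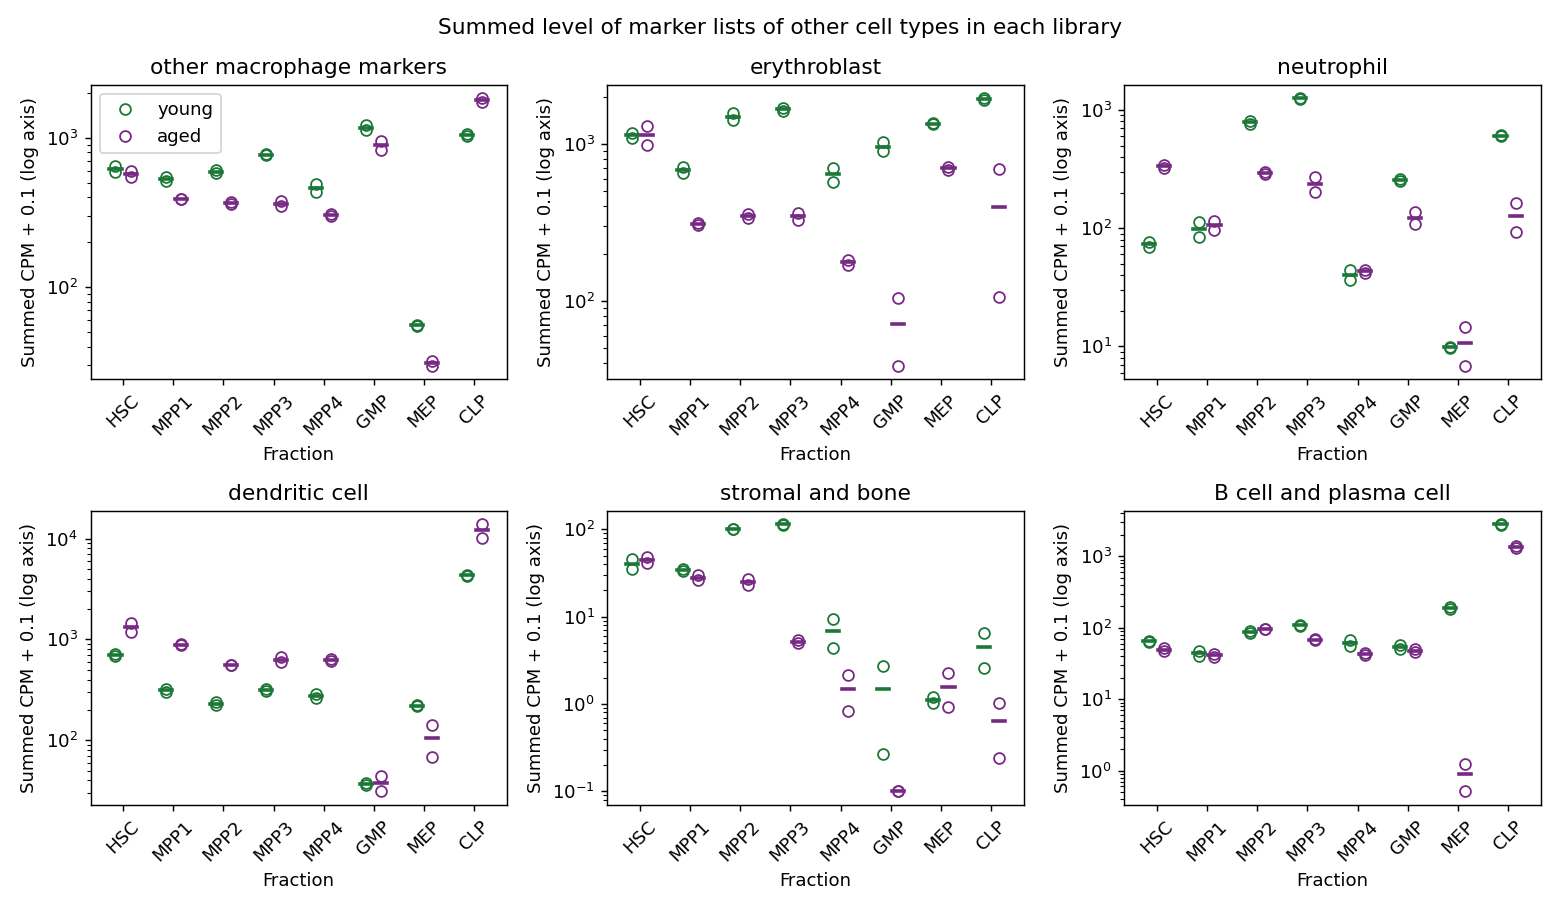
Summed CPM + 0.1 (log axis) of 6 lists of marker genes in each library of the 8 fractions, young in green and aged in purple, with bars at the mean of 2. Erythroblast sums lie below the young ones in every aged fraction but HSCs, neutrophil sums are higher in aged HSCs and lower in aged MPP2, MPP3, GMPs and CLPs, and dendritic cell sums are higher in aged HSCs, MPP1 to MPP4 and CLPs.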

How the data were processed

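RNA-seq libraries of 8 fractions and 2 ages, 2 per group (32 in all), were analysed. The authors prepared cDNA with a SMARTer Ultra Low Input kit and took gene counts from StringTie, and the submitters' processing notes name TopHat2 2.0.13, Bowtie2 2.1.0, DESeq2 and build mm10. The deposited raw counts are whole numbers per gene symbol. No use of strand was stated, so counts of overlapping and antisense genes and of near-identical copies are uncertain. A deposited table of normalized counts and 8 tables of the authors' own comparisons (log2 fold changes, test scores and p-values of aged against young cells) were not used.

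The 35 genes, the marker lists and the tests were chosen with earlier results of these data known. Genes that passed filterByExpr (14154 of 24421) were fitted in edgeR 4.0.16 (R 4.3.3, TMM factors, quasi-likelihood F-test, two-sided, limma 3.58.1) with 1 mean for each of the 16 groups, 16 residual degrees of freedom and a common dispersion of 0.0127, after tests on simulated data. A gene was called at a Benjamini-Hochberg adjusted p under 0.01 within a contrast over all genes tested. Contrasts of fractions use the libraries of the age contrasts and are likewise given without p-values. Fold changes of genes at 0 in both libraries of an age were replaced by a bound from a floor of 3 counts per library. CPM used library totals of 11237384 to 17723245 counts, and RPKM divided these by exon lengths of GENCODE M21. Replicates of a group differed beyond counting error (chi-square per degree of freedom 4.60 to 19.0). Same-numbered libraries of a fraction's 2 ages did not deviate together (r of -0.0925 to 0.123), so the numbers were not used as pairs.

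All 35 genes are described by role, with values in every library for those called with age in at least 3 fractions. From the lists of other macrophage and of other heme and iron genes, those called in at least 4 fractions are named. Lists were also drawn up for erythroblasts, neutrophils, monocytes, dendritic cells, basophils and mast cells, osteoclasts, stroma and bone, endothelium, B cells and plasma cells, T and NK cells and megakaryocytes. The listed Flvcr1, Flvcr2, Ahsp, Epb42, Ly6g and Trbc2 were not analysed here. Alternatives were DESeq2 1.42.0, its size factors, no filter, the replicate block, the 4 libraries of a fraction alone, each library left out in turn and TMM-scaled levels. A gene outside the set that the naming rules selected is not reported here.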

Additional observations from a re-analysis of the deposited data

Results flagged for a closer look

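A result is listed here when the age difference of a gene in GMPs, MEPs or CLPs differed from its mean age difference over HSCs and MPP1 to MPP4, by the interaction contrast of the edgeR fit. Because the genes were listed with the age contrasts known, the values are a description. Each is the log2 age difference (aged minus young) in the fraction minus that mean, and where a group held 0 counts (the C1q genes, Fcna, Cd5l, Lgmn and Hmox1 in some fractions) the fitted value depends on the prior count and is not a bound.

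In GMPs the values were negative for C1qb (-7.25), C1qc (-6.75), Fcna (-5.92), C1qa (-5.84), Lgmn (-3.01), Axl (-1.61) and Ctsd (-0.26), and positive for Vcam1 (2.38), Slc40a1 (1.51) and Trf (0.41).

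In MEPs the values were negative for Lgmn (-8.23), Hmox1 (-6.41), C1qb (-5.60), Trf (-4.62), Cd68 (-1.96), Axl (-1.81), Sirpa (-1.79) and Apoe (-0.93). They were positive for the iron exporter Slc40a1 (1.98), the biliverdin reductase Blvrb (0.74) and ferritin light chain Ftl1 (0.58).

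In CLPs the values were negative for Fcna (-8.78), Cd5l (-8.39), C1qc (-5.02), C1qa (-4.98), C1qb (-4.28), Axl (-3.00), Vcam1 (-2.79) and Slc40a1 (-2.63). They were positive for Cd68 (1.61), Sirpa (1.36), Ctsb (0.84), Fth1 (0.56) and Ftl1 (0.39), all but the ferritins being lysosomal or surface proteins of phagocytes. The cause of these differences was not tested.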

How the results depend on the processing

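No difference that was called in the main fit or in an alternative run turned its direction in that run. Differences called in neither were not compared for direction. Of the 104 age calls, DESeq2 kept 104, its size factors 103, no filter on low counts 102 and the replicate block 101. With DESeq2, MPP1 had 14 genes called (7 in edgeR). With the 4 libraries of a fraction alone, 4 were called in HSCs (8 in the fit of all libraries), 16 in MPP1 (7), 23 in MPP2 (15), 6 in MEPs (14) and 10 in CLPs (19), and 77 of the 99 age calls that could be compared remained. With the replicate block the number called was within 1.5 times for all 17 contrasts (7 in HSCs, 7 in MPP1, 9 in GMPs).

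With 1 library left out, the lone library of its group being assumed to vary like the other groups, the number called ranged from 5 to 7 in HSCs, 4 to 5 in MPP1, 5 to 8 in MPP2, 9 to 12 in MPP3 and in MPP4, 7 to 10 in GMPs, 8 to 12 in MEPs and 13 to 16 in CLPs. For the difference from HSCs and MPPs it ranged from 5 to 10 in GMPs, 7 to 12 in MEPs and 11 to 13 in CLPs. In the contrasts of fractions it ranged from 22 to 25, 24 to 28 and 15 to 19 in young GMPs, MEPs and CLPs and from 21 to 23, 21 to 25 and 17 to 19 in aged ones. The median fold change was -0.354 in GMPs, -0.218 in MEPs and -1.03 in CLPs without genes at 3 counts or fewer in both libraries of an age. Scaling CPM by TMM factors moved 180 of 480 group means by more than their SD. The limit of the low members is their count: with 0 counts in an aged group, only a bound can be given.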

Other observations

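Among the 10 genes outside the set whose log2 level followed the mean of the 10 macrophage members most closely over the 32 libraries were Slco2b1 (r = 0.839), Ccr3 (0.813), Vstm4 (0.798), B3gnt7 (0.797), Camp (0.793), Tab2 (0.783), Treml4 (0.781), Itga9 (0.780) and Hmga2 (0.778). Ccr3 is a chemokine receptor of eosinophils and basophils, and Camp encodes an antimicrobial peptide of neutrophil granules. The libraries share fractions, ages and depth, and the coefficients are a description.

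Ranges over all libraries follow for marker lists described above, if at all, in single fractions only. The 6 basophil and mast cell genes had 5 called lower in aged libraries in at least 1 fraction and 4 called higher. Their sums were 1.05 to 1697 CPM in young and 0.660 to 411 in aged libraries. Of 8 T and NK cell genes, 2 were called lower and 2 higher, with sums of 29.0 to 594 CPM in young and 10.9 to 884 in aged libraries. The 6 megakaryocyte genes had 5 called lower and 6 called higher, with sums of 36.5 to 1313 CPM in young and 40.7 to 1224 in aged libraries.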
